A study of Homo sapiens with 20 samples.

Results

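The BCL2 family decides whether the outer mitochondrial membrane is opened during apoptosis, and 10 of its genes were followed here in all 14 RNA-seq samples that had abundance files. The 10 members are BCL2, which the study named as a target of small RNAs made from tRNA (tsRNAs), and 9 relatives: BCL2L1, BCL2L2, MCL1, BAX, BAK1, BCL2L11, BBC3, PMAIP1 and BID. They were chosen by name, with earlier results of these data known, and their transcripts were summed to 10 of the 57087 genes in the files. All 10 passed the filter on low counts in both mRNA-seq and chrRNA-seq.

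Members fall into 3 kinds. BCL2, BCL2L1 (BCL-XL), BCL2L2 (BCL-W) and MCL1 are pro-survival proteins that hold the killers in check. BAX and BAK1 are effectors that form pores in the mitochondrial outer membrane, after which cytochrome c leaves and caspases are activated. BCL2L11 (BIM), BBC3 (PUMA), PMAIP1 (NOXA) and BID carry little more than a BH3 domain, by which they bind the other kinds. NOXA binds MCL1 by preference, PUMA and NOXA are known to be induced by DNA damage, and BID is cut by caspase-8 below the death receptors.

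Steady-state RNA (mRNA-seq) came from 3 wt samples labelled HEK293T and 3 Dicer knockdown samples labelled HEK293 2B (shDicer), all given 3 µg/ml doxycycline for 7 days. Chromatin-associated RNA (chrRNA-seq), which is rich in nascent transcripts, came from 2 wt, 2 shDicer, 2 shAgo2 and 2 Drosha knockdown (DroshaKD) samples, all labelled HEK293, a human embryonic kidney line. The shDicer and shAgo2 cells carried an inducible hairpin and had 3 µg/ml doxycycline for 72 h, whereas the DroshaKD cells were transfected with a hairpin plasmid against Drosha. The methods describe the inducible lines as recombinant HEK293T-REx lines, doxycycline is not stated for the chrRNA-seq wt and DroshaKD samples, no line with a scrambled hairpin is among these samples, and it is not stated whether replicates were separate cultures, so p-values measure the spread between these samples, which may be technical.

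Libraries held 10216430 to 17215978 estimated counts in mRNA-seq and 17484067 to 21553760 in chrRNA-seq. DICER1 mRNA was at 252, 257 and 232 CPM (TMM-normalized counts scaled to a common library size) in wt and at 80.6, 94.4 and 88.3 CPM in shDicer. In chrRNA-seq DICER1 was at 119 and 124 CPM in wt and 107 and 108 CPM in shDicer, AGO2 fell from 240 and 255 CPM in wt to 162 and 160 CPM in shAgo2, and DROSHA was at 146 and 153 CPM in wt and 166 and 148 CPM in DroshaKD. The chromatin value of DICER1 in shDicer did not pass the test, and DROSHA RNA was not lower in the libraries labelled DroshaKD (log2 fold change 0.07, edgeR adjusted p = 0.697), so directions given for DroshaKD are those of libraries with that label. The study reported knockdown of Drosha protein by western blot, and measured steady-state Drosha RNA by qRT-PCR in its chrRNA-seq samples. Both are other measures than chromatin RNA. Of 5 epithelial genes looked at, EPCAM and KRT19 set the shDicer and shAgo2 samples apart from the wt and DroshaKD samples. CDH1 did not set both apart, at 34.6 and 32.0 CPM in wt and 35.9 and 31.3 CPM in shAgo2 chromatin. In shDicer chromatin CDH1 was at 42.3 and 43.1 CPM, above wt without passing. It was called higher there than in DroshaKD, at 29.0 and 30.4 CPM. KRT5 and KRT14 were too low to be tested. EPCAM was at 1.36 to 2.19 CPM in the wt and DroshaKD samples of both assays and at 37.0 CPM or more in every shDicer and shAgo2 sample, and KRT19 had 0 counts in all 5 wt samples. Line and knockdown therefore cannot be told apart in the shDicer and shAgo2 comparisons, and this holds for each of their differences from wt. Of the leukocyte, fibroblast, endothelial and hepatocyte markers 0 passed the low-count filter in mRNA-seq. In chromatin the markers that passed included VWF, higher in shDicer, and CD14, lower, and COL1A1, higher, in shAgo2, and 0 passed in DroshaKD. The part of these markers in the members' values was not tested, and in bulk samples fewer cells of a type and less RNA per cell cannot be told apart.

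The tsRNA that the study synthesised against BCL2 is shown because it ties this gene to the study's question, with the only stretch of the BCL2 gene that is complementary to it over its longest run. Capitals mark the paired bases, in the tsRNA (bases 3 to 13 from its 5′ end) and in the BCL2 sense strand, where the run lies in an intron at chr18:63226240-63226250 (GRCh38, minus strand).
synthetic BCL2 tsRNA: uaAGCCAGGGAUUguggguucg
BCL2 intron: ccataaaaAATCCCTGGCTccactggc
The run of 11 bases had equals among the relatives: the longest run was also 11 bases in BAX and BCL2L11 and 7 to 9 bases in the other 7 genes.

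The part of the study's list of predicted sites that could be read names 9 tsRNA sequences for BCL2. Each paired with BCL2 over at most 10 unbroken bases, and for all 9 the first such run lay in an intron. Shown for comparison are 2 of them, with the paired bases in capitals, each above its stretch of BCL2.
tRNA-Glu-CTC-2-1: cCCTGGTGGTCtagtggttagg
BCL2 at chr18:63164433-63164442: cgtgatttGACCACCAGGatgaggtt
tRNA-Lys-TTT-2-1: gccTGGATAGCTCagttggtag
BCL2 at chr18:63144159-63144168: gctaaaacGAGCTATCCAaagttagc
In the relatives the longest runs for the same 9 sequences were between 6 bases, in PMAIP1, and 11 bases, in BCL2L1. BCL2 spans 196783 bases and PMAIP1 4310 bases, so the stretches searched differ in length, and these counts describe letters and not sites.

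Dicer also makes microRNAs, and several are known to act on this family through their seeds (bases 2 to 8, in capitals). Mature sequences were taken from RefSeq (GRCh38.p14), where all 8 microRNAs searched were found, and 4 of the 6 that matched BCL2 and at least 1 relative are shown as examples.
miR-16-5p: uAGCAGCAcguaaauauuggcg
miR-17-5p: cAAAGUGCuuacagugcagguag
miR-92a-3p: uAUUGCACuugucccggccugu
miR-29b-3p: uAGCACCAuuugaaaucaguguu
The letters complementary to each seed, read on the sense strand alone, were sought in the 3′ UTR of the MANE transcript of each member and of all 18780 genes with such a 3′ UTR. For miR-16-5p they are TGCTGCT, found in 21.6% of all these 3′ UTRs. For miR-17-5p they are GCACTTT, found in 21.5%. For miR-92a-3p they are GTGCAAT, found in 11.3%. For miR-29b-3p they are TGGTGCT, found in 14.1%. Stretches around 3 matches, in the members with the longest 3′ UTRs, show what such a match looks like, with the match in capitals.
BCL2 with miR-16-5p, bases 2529 to 2535 of the 3′ UTR: caatcctgTGCTGCTatcctgcc
BCL2L11 with miR-92a-3p, bases 2695 to 2701: atgtctgtGTGCAATtgtgtttc
MCL1 with miR-29b-3p, bases 1329 to 1335: tctaaccaTGGTGCTattattag
BCL2, with a 3′ UTR of 5279 bases, held matches to 6 of the 8 microRNAs, BCL2L11 (4213 bases) and MCL1 (2817 bases) to 4 each, and BCL2L2 (2786 bases) to 2, with 4 matches to miR-16-5p. BAK1 held matches to 3, BBC3 to 2 and BCL2L1 to 1. PMAIP1 (1552 bases), BID (1442 bases) and BAX (162 bases) held none. These are matches of letters, and whether any is used was not measured.

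Levels per length (TPM, which corrects for transcript length) put MCL1 first among the members in wt mRNA-seq, at 46.4 ± 4.33 TPM (SD, n = 3), followed by PMAIP1 at 24.0 ± 1.63, BAX at 14.4 ± 1.72, BAK1 at 10.3 ± 0.158 and BID at 6.73 ± 2.66 TPM. BCL2L1 (2.83 TPM), BCL2L2 (2.26 TPM) and BCL2L11 (2.00 TPM) overlapped with their neighbours in this order. BCL2 was last, at 0.652 ± 0.138 TPM, with samples that overlapped those of BBC3 at 0.897 ± 0.145 TPM. In shDicer the first places changed over: PMAIP1 was at 79.6 ± 13.5 TPM and MCL1 at 27.9 ± 6.35 TPM, and their samples did not overlap, while BCL2 was still last at 0.909 ± 0.241 TPM, where it overlapped with BCL2L11 at 1.20 TPM.

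Chromatin RNA had another order. BCL2L11 at 47.4 ± 3.32 TPM (n = 2) and MCL1 at 46.1 ± 1.66 TPM led in wt, and these overlapped. BCL2L2 followed at 22.2 ± 0.853 TPM and BAX at 16.6 ± 2.19 TPM. PMAIP1 (7.85 TPM), BCL2L1 (7.33 TPM) and BID (7.15 TPM) could not be put in order, and BAK1 came next at 5.57 TPM. BCL2 was at 2.93 ± 0.125 TPM, above BBC3 at 1.92 ± 0.269 TPM. PMAIP1 was the member that moved most in this order. It stood at 31.8 ± 0.0185 TPM in shDicer, where it overlapped with BCL2L2 at 28.9 TPM, at 19.5 ± 1.39 TPM in shAgo2 and at 10.5 ± 0.462 TPM in DroshaKD.

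In mRNA-seq the question was which members differ at steady state once Dicer is lowered. PMAIP1 rose and MCL1 fell in shDicer, and the other 8 members did not pass the threshold, an edgeR adjusted p under 0.001. Of all 15090 genes tested, 29.8% passed (15.6% higher and 14.2% lower), so 2 of 10 members is not above the background.

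**Figure D1:**
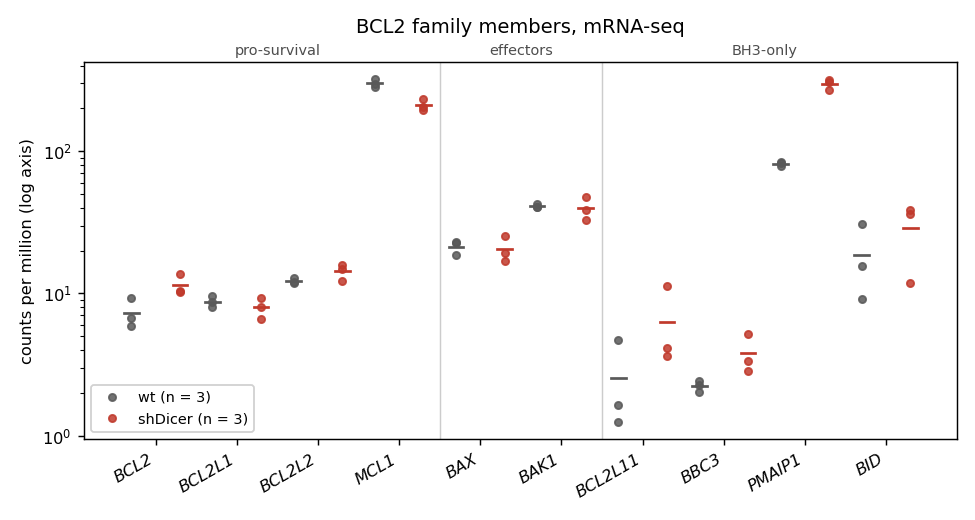
CPM of the 10 members in each mRNA-seq sample on a log axis, with a point for each sample and a bar at the group mean (wt grey, n = 3; shDicer red, n = 3). PMAIP1 lies at 78.9 to 83.4 CPM in wt and 271 to 316 CPM in shDicer, and MCL1 at 284 to 321 and 195 to 234 CPM.

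PMAIP1, the gene for NOXA, was at 78.9, 83.4 and 82.4 CPM in the wt samples and at 271, 306 and 316 CPM in the shDicer samples. All 3 shDicer samples lay above all 3 wt samples, and the samples of a group lay close together. The log2 fold change was 1.87 (SE 0.0785, edgeR adjusted p = 2.24e-08), and PMAIP1 passed in 12 of 12 alternative fits with values from 1.21 to 2.01.

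MCL1, the pro-survival partner of NOXA, was at 284, 295 and 321 CPM in wt and at 195, 204 and 234 CPM in shDicer. The groups did not overlap and the log2 fold change was -0.51 (SE 0.0844, edgeR adjusted p = 4.03e-04). Its direction held in all 12 alternatives, but the call was lost without wt replicate 1, 2 or 3 (edgeR adjusted p = 0.00126, 0.00207 and 0.00302), without shDicer replicate 2 (0.00252) and with counts rebuilt from TPM (0.00189).

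BCL2 was at 5.92, 6.76 and 9.21 CPM in wt and at 10.3, 10.4 and 13.6 CPM in shDicer, from 73 to 90 and 131 to 228 estimated counts. The shDicer samples all lay above the wt samples, by a log2 fold change of 0.66 (SE 0.19), but the edgeR adjusted p of 0.0117 missed the threshold. Without the filter on low counts BCL2 passed (edgeR adjusted p = 3.21e-04), as did BCL2L11 and BID. The other pro-survival genes overlapped between groups: BCL2L1 was at 8.01 to 9.52 CPM in wt and 6.62 to 9.25 CPM in shDicer, and BCL2L2 at 11.8 to 12.8 and 12.2 to 15.8 CPM.

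The effectors showed no difference beyond the spread. BAX was at 18.5 to 22.8 CPM in wt and 17.0 to 25.5 CPM in shDicer (log2 fold change -0.05, SE 0.158), and BAK1 at 40.3 to 42.5 and 32.7 to 47.7 CPM (-0.06, SE 0.129).

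Among the BH3-only genes BBC3 did not overlap between groups, at 2.03, 2.40 and 2.25 CPM in wt and 5.17, 3.33 and 2.86 CPM in shDicer, but its edgeR adjusted p was 0.0323. BCL2L11 and BID varied widely between samples of one group. BCL2L11 was at 4.70, 1.25 and 1.64 CPM in wt and at 3.60, 4.16 and 11.2 CPM in shDicer, and BID at 30.9, 15.5 and 9.11 CPM and at 38.7, 35.9 and 11.9 CPM. BCL2L11 also shows how the scale matters here, since its mean TPM was lower in shDicer (1.20) than in wt (2.00) while its mean CPM was higher (6.32 against 2.53), and with counts rebuilt from TPM its log2 fold change was -0.48 in place of 1.31.

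The ratio of BCL2 to each relative was compared within samples of mRNA-seq, as a log2 CPM ratio. It was higher in every shDicer sample than in any wt sample against MCL1 (by 1.17 on average) and BCL2L1 (by 0.80), and lower against PMAIP1 (by -1.20). An exact two-sided permutation test of 3 against 3 samples cannot go below 0.1, which was its p in these 3 cases, or 0.3 after Benjamini-Hochberg adjustment over the 9 relatives.

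In chrRNA-seq each knockdown was compared with the same 2 wt samples, to see which members differ in chromatin-associated RNA. These comparisons share their controls, so their values stand side by side and are not independent of each other. Reads were counted on annotated transcripts, so intron reads count only where such a transcript holds the intron, and nascent RNA was not measured apart. BCL2 and PMAIP1 were higher and BAX was lower in both shDicer and shAgo2. BCL2L2 was also higher in shDicer and BID was also lower in shAgo2. DroshaKD changed no member past its threshold.

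**Figure D2:**
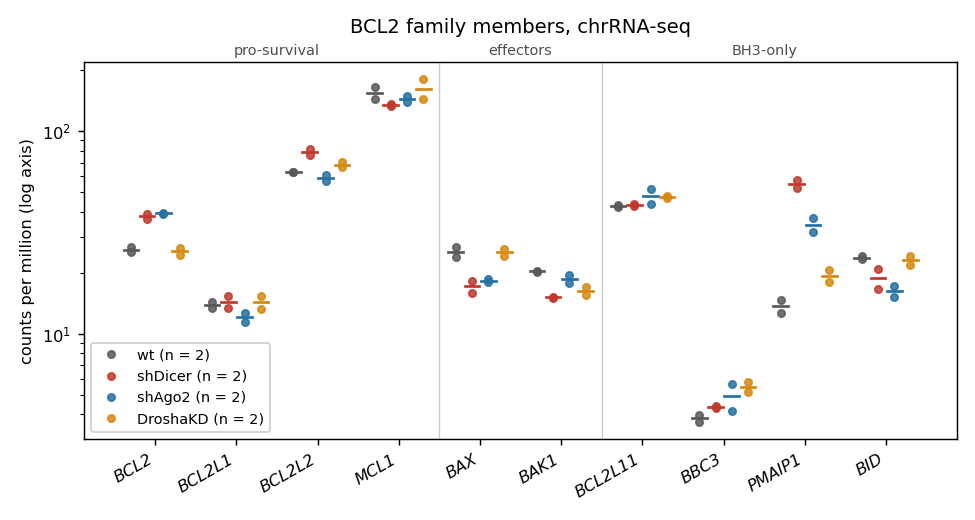
CPM of the 10 members in each chrRNA-seq sample on a log axis, with a point for each sample and a bar at the mean of each group of 2 (wt grey, shDicer red, shAgo2 blue, DroshaKD orange). PMAIP1 falls in the order shDicer (52.3 to 57.3 CPM), shAgo2 (31.7 to 37.4), DroshaKD (17.9 to 20.7) and wt (12.7 to 14.7), and BCL2 separates shDicer and shAgo2 from wt and DroshaKD.

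In shDicer chromatin 4 of 10 members passed (3 higher, 1 lower) at an edgeR adjusted p under 0.005, against 21.6% of 32874 genes (11% higher, 10.5% lower). In shAgo2 it was also 4 of 10 (2 higher, 2 lower), against 24.5% (12.5% higher, 12.1% lower). In DroshaKD it was 0 of 10 at an edgeR adjusted p under 0.05, against 3.38% (1.19% higher, 2.18% lower), and PMAIP1 was called by DESeq2. Before adjustment BAK1, BBC3 and PMAIP1 were under 0.05 in edgeR, as were 6286 of the 32874 genes. For shDicer, shAgo2 and DroshaKD in turn, the members' median log2 fold change was 0.03, -0.10 and 0.06, beside 0.01, 0.00 and 0.00 for all genes tested.

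BCL2 was at 26.7 and 25.3 CPM in wt, 37.0 and 39.2 CPM in shDicer, 39.2 and 39.5 CPM in shAgo2 and 24.4 and 26.5 CPM in DroshaKD. The shDicer and shAgo2 samples stood above all others, whereas wt and DroshaKD overlapped. The log2 fold change against wt was 0.55 in shDicer (SE 0.0858, edgeR adjusted p = 3.31e-04), 0.60 in shAgo2 (SE 0.0855, adjusted p = 1.53e-04) and -0.03 in DroshaKD (SE 0.0883, adjusted p = 0.897). The study chose its targets with these samples, so the rise of BCL2 is no independent evidence of its direction. Without wt replicate 2 the shDicer call was lost (log2 fold change 0.51, edgeR adjusted p = 0.00813).

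BCL2L2 was at 62.9 and 63.2 CPM in wt and 81.9 and 76.5 CPM in shDicer, with a log2 fold change of 0.33 (SE 0.0758, edgeR adjusted p = 0.00471) just inside the threshold. It was at 60.6 and 56.9 CPM in shAgo2, below wt, and at 66.6 and 70.2 CPM in DroshaKD. The shDicer call was kept in 1 of 11 alternatives, all with the same sign (0.20 to 0.39), and was lost without any one of the 4 samples (edgeR adjusted p from 0.00647 to 0.0446). Of the 31-base words in BCL2L2 transcripts 16.5% also occur in the read-through gene BCL2L2-PABPN1, so its counts are uncertain. BCL2L1, at 11.4 to 15.4 CPM in all 8 samples, and MCL1, at 133 to 181 CPM, passed in no comparison with wt. In shDicer chromatin the log2 fold change of MCL1 was -0.20 (SE 0.106). A separate fit of both assays together put its mRNA-seq change minus its chromatin change at -0.23 (SE 0.127, edgeR adjusted p = 0.304). That fit has its own scaling, so its value is not the difference of the separately fitted changes.

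BAX was at 26.7 and 24.0 CPM in wt, 18.3 and 15.9 CPM in shDicer, 18.6 and 18.01 CPM in shAgo2 and 24.3 and 26.1 CPM in DroshaKD. Every shDicer and shAgo2 sample lay below every wt and DroshaKD sample. The log2 fold change was -0.57 in shDicer (SE 0.105, edgeR adjusted p = 0.00114) and -0.47 in shAgo2 (SE 0.104, adjusted p = 0.00329). The shDicer call was lost without wt replicate 1 (edgeR adjusted p = 0.0200) or shDicer replicate 2 (0.0111), and the shAgo2 call without any one of the 4 samples (0.00869 to 0.0453).

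BAK1, the other effector, was at 20.2 and 20.5 CPM in wt and 15.2 and 15.0 CPM in shDicer (log2 fold change -0.43, SE 0.102), and its edgeR adjusted p of 0.00573 just missed the threshold. It was at 19.5 and 17.7 CPM in shAgo2 and 15.5 and 17.1 CPM in DroshaKD, below wt in both and without passing. The pseudogene BAK1P1 shares 16.8% of the 31-base words of BAK1, which makes its counts uncertain too.

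PMAIP1 was at 12.7 and 14.7 CPM in wt, 52.3 and 57.3 CPM in shDicer, 31.7 and 37.4 CPM in shAgo2 and 20.7 and 17.9 CPM in DroshaKD. No group overlapped with another. The log2 fold change was 2.00 in shDicer (SE 0.119, edgeR adjusted p = 1.68e-07) and 1.34 in shAgo2 (SE 0.121, adjusted p = 4.11e-06), and both passed in 11 of 11 alternatives. In DroshaKD it was 0.50 (SE 0.127) with an edgeR adjusted p of 0.0541, outside the threshold of 0.05, and 5 of 12 alternatives put it inside, among them DESeq2 (DESeq2 adjusted p = 0.0348) and the fit without DroshaKD replicate 2 (edgeR adjusted p = 0.0490).

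BID was at 24.1 and 23.4 CPM in wt, 20.8 and 16.7 CPM in shDicer and 15.2 and 17.2 CPM in shAgo2, with 21.9 and 24.2 CPM in DroshaKD. It fell in shAgo2 (log2 fold change -0.55, SE 0.121, edgeR adjusted p = 0.00298), and in shDicer the value was -0.34 (SE 0.119, adjusted p = 0.0402). The shAgo2 call was lost without any one of the 4 samples (edgeR adjusted p from 0.0103 to 0.0445). BCL2L11, at 42.2 to 51.6 CPM, and BBC3, at 3.66 to 5.77 CPM, passed in no comparison.

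**Figure D3:**
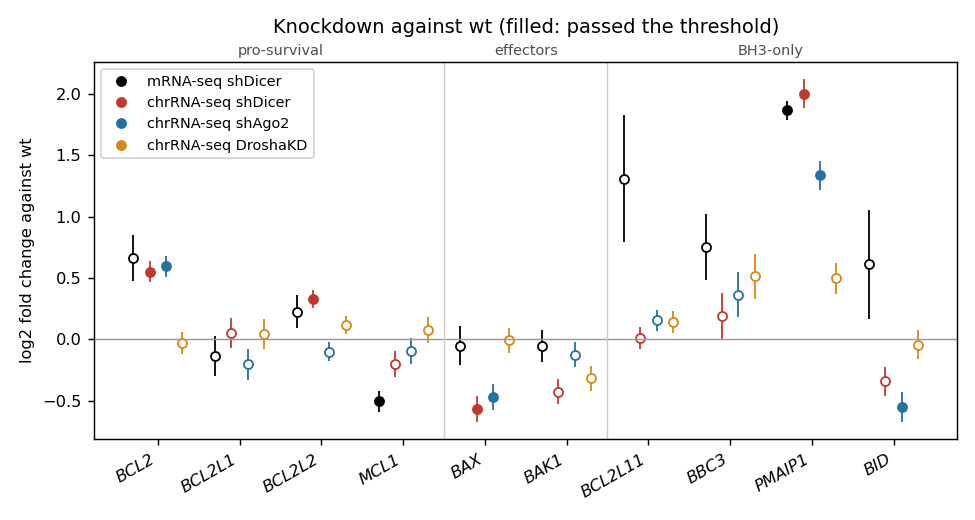
log2 fold change against wt for each member in mRNA-seq shDicer (black) and in chrRNA-seq shDicer (red), shAgo2 (blue) and DroshaKD (orange), with the standard error as a vertical line and filled points past the threshold of that comparison. PMAIP1 carries the largest values past a threshold, 1.87, 2.00 and 1.34, while BCL2 passes in chrRNA-seq at 0.55 and 0.60 and BAX at -0.57 and -0.47.

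When the knockdowns were compared directly in chrRNA-seq at an edgeR adjusted p under 0.005, 2 members were higher in shDicer than in shAgo2, against 2.71% of all genes (1.37% higher). These were PMAIP1, by 0.67 (SE 0.107, edgeR adjusted p = 0.00267), and BCL2L2, by 0.43 (SE 0.0755, adjusted p = 0.00429). Both calls were lost without any one of the 4 samples, with an edgeR adjusted p from 0.00619 to 0.0526 for PMAIP1 and from 0.00680 to 0.0762 for BCL2L2. BCL2 differed by -0.05 (SE 0.0824) between shDicer and shAgo2.

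Against DroshaKD, BCL2 and PMAIP1 were higher and BAX lower in shDicer, where 20.5% of genes passed (11% higher, 9.51% lower), and the same members were so in shAgo2, where 21.9% passed (11.6% higher, 10.3% lower). BCL2 was higher by 0.58 (SE 0.0853, edgeR adjusted p = 2.30e-04) and 0.63 (SE 0.085, adjusted p = 1.19e-04). PMAIP1 was higher by 1.50 (SE 0.113) and 0.84 (SE 0.115), and BAX lower by -0.56 (SE 0.105) and -0.46 (SE 0.104). BAX lost the first call without shDicer replicate 2 or DroshaKD replicate 2 (edgeR adjusted p = 0.0123 and 0.0109), and the second without any one of the 4 samples (0.00807 to 0.0400).

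The shDicer change in mRNA-seq was set against that in chrRNA-seq in a fit of both, where 5.03% of 31106 genes passed at an edgeR adjusted p under 0.005 (3.82% with a higher and 1.21% with a lower change in mRNA-seq). No member passed in edgeR or in DESeq2. Before adjustment BAX, BAK1 and BCL2L11 were under 0.05 in edgeR, as were 7646 of the 31106 genes. PMAIP1 differed by -0.06 (SE 0.129), BCL2 by 0.20 (SE 0.225) and BAX by 0.59 (SE 0.233, edgeR adjusted p = 0.117). The median over all genes was 0.10, and with DESeq2's size factors in edgeR 654 genes passed with a higher and 579 with a lower change. Doxycycline was given for 7 days in mRNA-seq and 72 h in chrRNA-seq, and is not stated for the chrRNA-seq wt samples. Assay and induction therefore cannot be told apart in this comparison.

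Members lie in chromosomal surroundings that moved as well. BCL2 (chr18:63123346-63320128) and PMAIP1 (chr18:59899996-59904305) are both on chromosome 18 of GRCh38. In shDicer 39.9% of the 233 chromosome 18 genes tested in mRNA-seq were called higher and 10.3% lower, and in chrRNA-seq 29.6% of 619 were higher and 4.20% lower. The median log2 fold change of the 50 tested genes nearest to BCL2 was 0.72 in mRNA-seq and 0.41, 0.37 and 0.08 in the chromatin of shDicer, shAgo2 and DroshaKD. Beside these, the values of BCL2 itself were 0.66, 0.55, 0.60 and -0.03.

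With the neighbours' median as an offset, BCL2 was left with 0.14 in shDicer (edgeR adjusted p = 0.242) and 0.23 in shAgo2 (0.0538), and neither passed, and in mRNA-seq with -0.06 (0.813). MCL1 kept its call in mRNA-seq (-0.52, edgeR adjusted p = 4.42e-04). In mRNA-seq PHLPP1 and KDSR, the tested genes on either side of BCL2, rose by 0.77 (SE 0.121) and 0.97 (SE 0.162). For PMAIP1 the medians of its 50 neighbours were 0.66, 0.70, 0.53 and 0.06, and with the offset its log2 fold change was 1.21 in mRNA-seq, 1.31 in shDicer and 0.81 in shAgo2 chromatin, each past its threshold. BAX on chromosome 19 had neighbours at -0.37 and -0.46 in shDicer and shAgo2, and with the offset it was at -0.20 and -0.01 and did not pass. BCL2L2 in shDicer (0.20) and BID in shAgo2 (-0.26) did not pass with the offset either. The part of such regional shifts in the members' values was not tested beyond this offset.

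**Figure D4:**
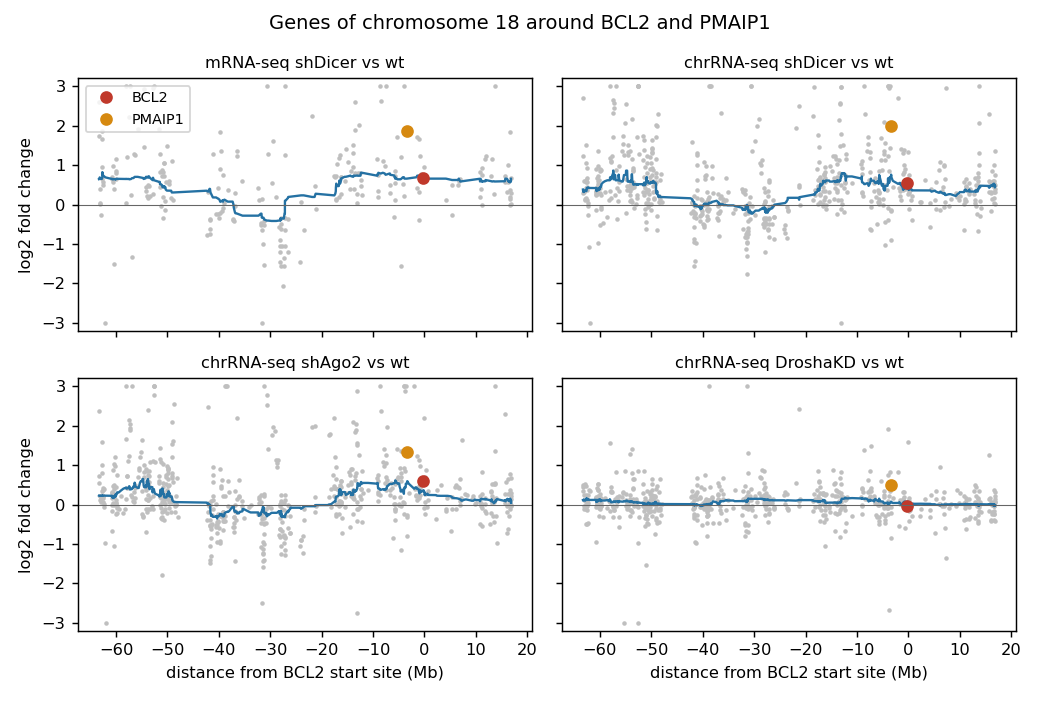
log2 fold change of the tested genes of chromosome 18 (grey points, values beyond 3 in either direction drawn at the limit) by distance from the start site of BCL2 in megabases, with the median of each gene's 50 nearest tested genes (blue line), BCL2 (red) and PMAIP1 (orange). BCL2 lies on or near the blue line, at 0.66 beside 0.72 in mRNA-seq and 0.55 beside 0.41 in shDicer chromatin, whereas PMAIP1 lies above it, at 1.87 beside 0.66 and 2.00 beside 0.70.

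The genes whose chrRNA-seq pattern was most like that of BCL2, by Pearson's r of log2 CPM over the 8 samples among 15916 genes, included PNMA2 (0.996), ARAP2 (0.995), CGNL1 (0.995) and ZFP82 (0.995). These are descriptions over samples that share their groups, and these 4 genes separate shDicer and shAgo2 from wt and DroshaKD. None of them lies on chromosome 18. ZFP82, for example, was at 22.2 and 22.5 CPM in wt, 17.7 and 21.8 CPM in DroshaKD and 68.2 to 76.8 CPM in the other 4 samples.

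Transcript shares differed more between the assays than among the 4 chromatin groups for BCL2, PMAIP1 and BAK1, by their means. Of the TPM of BCL2, the transcript BCL2-203 made up 69.1 to 72.8% on average in the chromatin groups and 43.0 and 48.8% in wt and shDicer mRNA-seq. For PMAIP1 the retained-intron transcript PMAIP1-203 made up 55.9 to 62.9% in chromatin and 5.54 and 8.09% in mRNA-seq, where the coding PMAIP1-202 made up 90.2 and 75.7%. For BAK1 the transcript BAK1-201 made up 83.5% in wt mRNA-seq and 8.24% in wt chromatin. MCL1-205 made up 52.8 to 60.3% of MCL1 in the wt mRNA-seq samples and 22.5 to 52.5% in shDicer, where the SD of 17.4 shows the wide spread between samples, and MCL1-202 made up 26.2 to 33.7% and 30.6 to 60.1%, which overlapped. These shares rest on the division of shared reads among transcripts by kallisto and have no test.

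**Figure D5:**
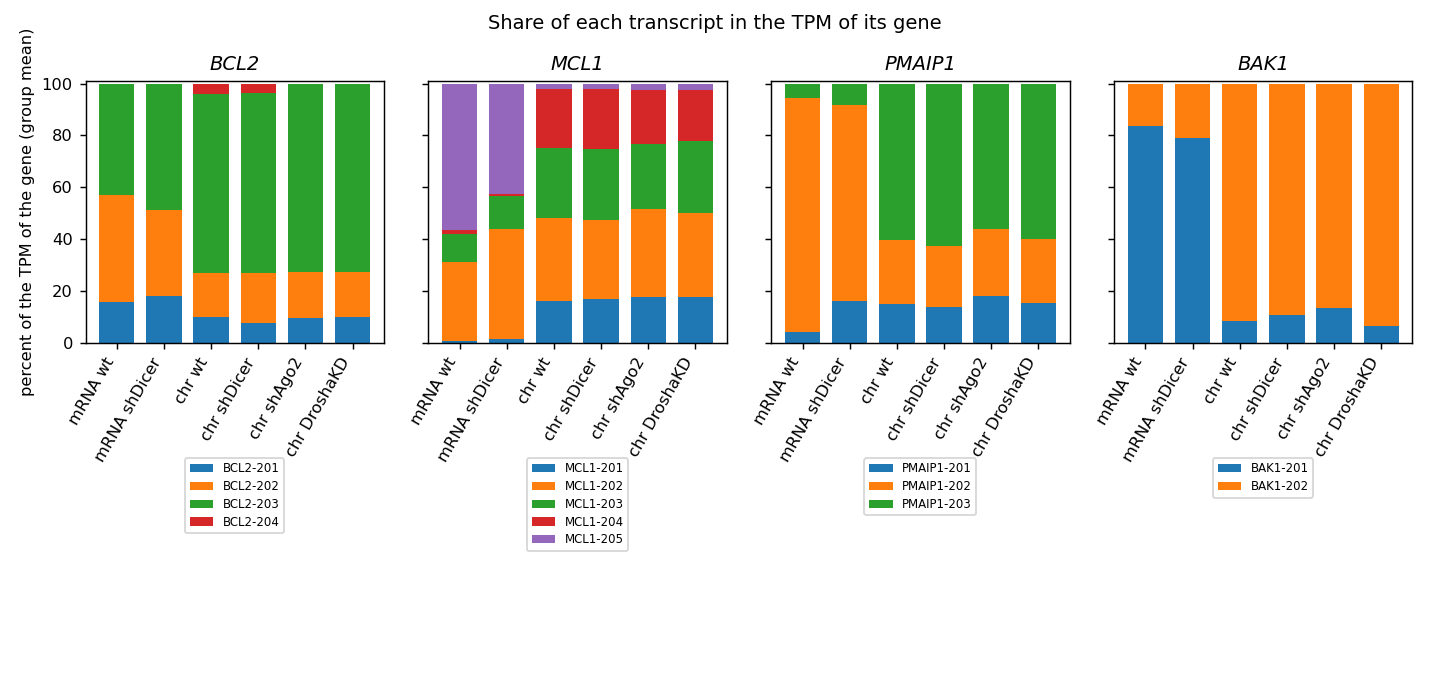
Share of each annotated transcript in the TPM of BCL2, MCL1, PMAIP1 and BAK1, as the mean of each group in percent (3 samples per mRNA-seq group, 2 per chrRNA-seq group). The mRNA-seq and chromatin columns differ, for example in PMAIP1-203 with 5.54% in wt mRNA-seq and 60.5% in wt chromatin, while the 4 chromatin columns resemble each other.

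Relatives outside the 10 members moved in part. Counts in this and the following lists, chosen with earlier results of these data known, stand beside the shares of all genes that passed. These were 15.6% higher and 14.2% lower in mRNA-seq, and 11% and 10.5% in shDicer chromatin. In shAgo2 they were 12.5% and 12.1%, and in DroshaKD 1.19% and 2.18%. Of 11 further family genes 8 were tested in mRNA-seq, and BOK (2.59), BIK (3.04) and BMF (1.45) rose in shDicer on the log2 scale, all of them pro-apoptotic (BIK and BMF are BH3-only proteins). In wt mRNA-seq BOK was at 0.324, 0.267 and 0.102 CPM and BIK at 0.567, 0.356 and 0.205 CPM. Both were thus near the floor of detection, so the sizes of their changes are uncertain, and neither passed in shDicer chromatin. BMF, which is known to sense loss of attachment, was at 6.34 and 6.38 CPM in wt chromatin and rose in shDicer (1.17), shAgo2 (1.26) and DroshaKD (0.64). BCL2L12 fell in shDicer (-0.94) and shAgo2 (-1.04), BCL2L13 in shDicer (-0.46), and HRK rose in DroshaKD (0.46). The median of the list was 0.22 in mRNA-seq and -0.10, -0.11 and -0.11 in the 3 chromatin comparisons.

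Genes of the DNA damage and growth arrest response outside the family, a list of 12 that were all tested, rose for the most part in shDicer and shAgo2. In shDicer 9 rose and 0 fell in mRNA-seq (median 1.10), with CDKN1A, the cell cycle inhibitor p21, at 3.65, FDXR at 1.95, the death receptor gene TNFRSF10B at 1.45 and ZMAT3 at 1.33. In chrRNA-seq 9 rose in shDicer (median 0.74), 8 in shAgo2 (0.66) and 3 in DroshaKD (0.24), and 0 fell. The 3 in DroshaKD were CDKN1A (1.62), GADD45A (0.84) and ZMAT3 (0.55). CDKN1A was at 2.96 and 2.59 CPM in wt chromatin, 8.21 and 8.74 in shDicer, 12.4 and 13.5 in shAgo2 and 7.65 and 9.42 in DroshaKD.

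The death receptor genes that feed BID rose in part. In mRNA-seq 4 of 8 tested rose (FAS by 3.10, CASP8 by 1.93, CASP10 by 1.82, TNFRSF10B by 1.45) and 0 fell. In chromatin 5 of 9 rose in shDicer and 4 in shAgo2, while FADD (-0.76 and -0.75) and RIPK1 (-1.45 and -0.66) fell in both, and CASP10 alone rose in DroshaKD (0.43). Downstream of the mitochondria, 14 genes of the apoptosome and the caspases went both ways in shDicer mRNA-seq: 3 rose, among them HTRA2 (0.70) and BIRC3 (3.13), and CYCS, the cytochrome c gene (-1.14), and BIRC2 (-0.77) fell. In chromatin 3 of them fell in shDicer (CASP2, BIRC2 and BIRC5), 2 rose (among them BIRC6) and 1 fell (CASP2) in shAgo2, and 0 passed in DroshaKD. BIRC3 was low in wt mRNA-seq, at 0.405, 0.978 and 0.716 CPM, so the size of its change is uncertain. It did not pass against wt in chromatin. Of all genes 29.8% passed in mRNA-seq, 21.6% in shDicer chromatin and 24.5% in shAgo2. The counts of the 14 apoptosome and caspase genes are thus not set apart from the background. For the death receptor genes that rose, the shares of all genes higher were 15.6% in mRNA-seq, 11% in shDicer chromatin and 12.5% in shAgo2. For those that fell, the shares of all genes lower were 10.5% in shDicer chromatin and 12.1% in shAgo2.

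Of 10 mitochondrial partners, 1 fell in mRNA-seq (MTCH2, -0.58), 5 fell in shDicer chromatin (among them VDAC2, -0.41, a channel that holds BAK1) and 4 in shAgo2, and 0 rose. Of all genes 14.2% fell in mRNA-seq, 10.5% in shDicer chromatin and 12.1% in shAgo2. Among 6 genes that set MCL1 protein stability, FBXW7, a ubiquitin ligase subunit, fell in mRNA-seq (-1.01) and in shDicer and shAgo2 chromatin (-0.66 and -0.41), while the deubiquitinase gene USP9X rose in both chromatin comparisons (0.51 and 0.61) and FBXO4 rose in mRNA-seq (0.72). Of the transcription factors known to act on members, 12 were tested in mRNA-seq, where STAT3 rose (0.63) and NFKB1 (-1.26), ATF4 (-0.90), FOXO1 (-0.87) and MYC (-0.76) fell. In chromatin 5 of 13 fell in shDicer, 5 fell in shAgo2 and 1 fell in DroshaKD. MYC, which fell in shDicer mRNA-seq, was the 1 that rose in shAgo2 chromatin (0.65), from 24.9 and 27.0 CPM in wt to 37.5 and 43.8 CPM. In shDicer chromatin MYC was also above wt, at 30.5 and 40.0 CPM, without passing. Its shDicer change was called lower in mRNA-seq than in chrRNA-seq in the fit of both.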

How the data were processed

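The authors quantified each library with kallisto against Ensembl transcripts (coding and non-coding) and deposited, per transcript, an estimated count (fractional, not normalized) and a TPM (scaled by effective length). The labels name polyA RNA for mRNA-seq, whereas the methods describe ribosomal RNA depletion, and the processing notes name hg38. Small RNA-seq was not analysed here. Transcripts were matched by identifier to GENCODE release 44 (193697 of 217082, 89.2%), and estimated counts were summed per gene and rounded. Genes were tested with edgeR 4.0.16 in R 4.3.3 (filterByExpr, TMM, quasi-likelihood F-test, a term for each group, 6 mRNA-seq and 8 chrRNA-seq samples in separate fits) with Benjamini-Hochberg adjustment over all genes tested. Thresholds followed the methods (0.001 for mRNA-seq, 0.005 for shDicer and shAgo2, 0.05 for DroshaKD), and 0.005 served for direct comparisons. A standard error is the log2 fold change divided by the root of its F statistic. CPM are TMM-normalized. Depth allows a floor of 3 counts, 0.184 to 0.311 CPM in mRNA-seq and 0.149 to 0.183 CPM in chrRNA-seq, which covers counting error only, as PCR copies of a molecule were not told apart. Scripts were tested on simulated data.

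Alternatives were DESeq2 1.42.0, its size factors, no low-count filter, counts rebuilt from TPM, a replicate block, an offset from 50 neighbouring genes, fits of 2 groups and leaving out each sample. Named genes are the 10 members, up to 4 genes of a list per comparison (others are named where a count is 5 or fewer), the nearest tested genes and the 5 most like BCL2. microRNAs and the tsRNA examples were chosen by hand. The members and lists were chosen with earlier results of these data known. A few genes of these lists are not reported here.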

Additional observations from a re-analysis of the deposited data

Results flagged for a closer look

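Effects of 2 knockdowns that differed by the direct test in chrRNA-seq, on the log2 scale with edgeR adjusted p-values, were these. PMAIP1 was higher in shDicer than in shAgo2 by 0.67 (adjusted p = 0.00267) and BCL2L2 by 0.43 (0.00429). Compared with DroshaKD, BCL2 was higher in shDicer by 0.58 (2.30e-04) and in shAgo2 by 0.63 (1.19e-04). PMAIP1 was higher than in DroshaKD by 1.50 in shDicer (1.21e-06) and by 0.84 in shAgo2 (1.30e-04). BAX differed from DroshaKD by -0.56 in shDicer (0.00129) and by -0.46 in shAgo2 (0.00392). The shDicer and shAgo2 cells were inducible lines and the DroshaKD cells were transfected, so knockdown and way of delivery cannot be told apart in the last 6 values.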

How the results depend on the processing

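Of the 490 member values refitted with another tool, scaling, filter, count, block or offset, 457 stayed on their side of the threshold, 23 lost a call and 10 gained one. No called value changed sign. In mRNA-seq 4 members were higher without the low-count filter (1 as reported) and 0 were lower with counts rebuilt from TPM (1 as reported). With the neighbour offset 1 member was higher and 0 lower in shDicer chromatin (3 and 1 as reported), and 1 higher and 0 lower in shAgo2 (2 and 2). In shAgo2 1 member was lower with DESeq2 and 0 with counts rebuilt from TPM. DroshaKD had 1 member higher with DESeq2, without the filter and in a fit of 2 groups (0 as reported). Against DroshaKD, 0 members were lower in shAgo2 with DESeq2 and with counts rebuilt from TPM, and 2 with DESeq2's size factors and without the filter (1 as reported). Between shDicer and shAgo2, counts rebuilt from TPM gave 1 member higher (2 as reported). Over all genes, DroshaKD had 347 calls with counts rebuilt from TPM (1110 as reported), shDicer against shAgo2 1414 without the filter and 398 with counts rebuilt from TPM (891), and the mRNA-seq against chrRNA-seq comparison 812 and 666 (1564). The causes were not tested.

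Deviations of same-numbered samples had weak correlations in mRNA-seq (0.071, 0.048 and 0.122), though above those of differently numbered samples (-0.119 to 0.034). In chrRNA-seq they were -0.201 to 0.058, and below 0 for DroshaKD against each other group. Whether the numbers pair samples could not be settled from these values. With the replicate block the all-gene calls were 4773 (mRNA-seq), 5879 (shDicer), 6869 (shAgo2), 452 (DroshaKD), 413 (shDicer against shAgo2), and 5492 and 5937 (shDicer and shAgo2 against DroshaKD). Under the block 0 members were lower in shAgo2, 0 higher in shDicer than in shAgo2 and 0 lower in shAgo2 than in DroshaKD. A block with the DroshaKD numbers crossed, chosen after seeing the data, gave 3111, 8435 and 8926 calls in the 3 DroshaKD comparisons, 1 member higher in DroshaKD and 2 lower in shAgo2 than in DroshaKD.

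Leaving out each replicate gave 2725 to 4692 calls in mRNA-seq (members higher 1 to 1, lower 0 to 1), 3843 to 5802 in shDicer chromatin (1 to 2, 0 to 1), 4448 to 4853 in shAgo2 (2 to 2, 0 to 0) and 72 to 981 in DroshaKD (0 to 1, 0 to 0). It gave 107 to 575 for shDicer against shAgo2 (0 to 0, 0 to 0), 4787 to 5324 for shDicer against DroshaKD (2 to 2, 0 to 1), 3688 to 5577 for shAgo2 against DroshaKD (2 to 2, 0 to 0) and 796 to 1881 for mRNA-seq against chrRNA-seq (0 to 0, 0 to 0). A group left with 1 sample was assumed to vary like the others. Depth limits the low members most, since BCL2 rested on 73 to 228 estimated counts per mRNA-seq sample.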

Other observations

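BCL2L14 and BCL2L15, further relatives of BCL2, were low at steady state and measurable in chromatin. BCL2L14 was at 0.178 to 0.243 CPM in the mRNA-seq samples, where it was too low to be tested, and at 10.2 to 15.8 CPM in the 8 chrRNA-seq samples. BCL2L15 was at 0.405 to 1.69 CPM and at 6.99 to 9.09 CPM. Neither passed in a comparison with wt.

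Genes that mark HEK293 cells moved in both directions. Of 10 on this list, 8 were tested in mRNA-seq, where NEFL (4.77), KRT18 (1.81), KRT8 (1.51) and CDH2 (0.61) were higher and NEFM (-3.94) was lower in shDicer on the log2 scale by edgeR. In chromatin 5 were higher and 2 lower in shDicer, 2 higher and 3 lower in shAgo2, and 0 higher and 2 lower in DroshaKD. NEFM was lower in all 4 comparisons, by -3.28, -4.71 and -1.07 in the chromatin of shDicer, shAgo2 and DroshaKD.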
